A study of Rattus norvegicus with 12 samples.

Results

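The genes described here are 145 moderately expressed genes whose level was lower in every Cpeb4 immunoprecipitate than in every input library of neonatal rat cardiomyocytes, out of 10491 genes tested and 32883 in the table. They were chosen by their measured levels. The highest CPM (read counts normalised to library size) in the 6 immunoprecipitate (IP) libraries had to lie below the lowest CPM in the 6 input libraries. The mean input level had to be 20 to 400 CPM, and the mean IP level at most 0.5 times the mean input level. CPM were scaled with TMM factors, which assume that most genes do not differ between libraries. The difference between input and IP in these genes is therefore a description, and calls for it over the 12 libraries support nothing.

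Cpeb4 belongs to the cytoplasmic polyadenylation element binding proteins, which bind uridine-rich elements in the 3′ untranslated regions of mRNAs and regulate the length of their poly(A) tails and their translation. An RNA immunoprecipitation recovers RNA with an antibody against such a protein, and a transcript is called enriched or depleted by comparing its level in the precipitate with its level in total RNA. The measure is relative. A transcript lower in the precipitate made up a smaller part of the recovered RNA than of the cell's RNA, which does not tell whether the protein binds it.

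The cells were ventricular cardiomyocytes of Wistar rats, from hearts of 1 to 2 day old animals, enriched on a Percoll gradient. Cells were mock treated or received phenylephrine (PE), an alpha-adrenergic agonist that induces cardiomyocyte hypertrophy, for 24 h. Each treatment had 3 input libraries of total RNA and 3 libraries of RNA precipitated with a Cpeb4 antibody. All 12 libraries read the 3′ ends of transcripts. A precipitate made with a control antibody was not analysed here. In bulk RNA, fewer cells of a type and less RNA per cell cannot be told apart.

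Library totals ranged from 1423334 to 30216559 counts. The deposited table gives Ensembl rat identifiers without symbols, and 0 of the 47357 genes of the rat reference used here carry such an identifier. For this reason no member could be given a name, a function or a sequence, and only 2 identifiers are printed. The gene lists, and the markers of cardiomyocytes and other cell types, could not be applied either, so the labelled cell type was not checked. Input mock replicate 2, input PE replicate 1 and IP mock replicate 2 stood apart. Each had 0 counts for 2.76% to 6.96% of the genes at 20 to 50 CPM in the other libraries of its type, against at most 0.238% elsewhere. Some results are also given with mock replicate 2 and PE replicate 1 left out of both input and IP, which leaves 8 libraries. These are the number of members, the repeat across treatments, the members called and the PE effect in IP. Levels, fold classes, shares by input level and zero counts are given on all 12 libraries only.

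The 145 members had a median of 121 CPM in input and 45.1 CPM in IP, taking each gene's mean over 6 libraries. The median member was 2.90-fold lower in IP, with quartiles at 2.33-fold and 3.69-fold. Between 2-fold and 4-fold lower were 116 members. A further 29 were at least 4-fold lower, of which 8 were at least 8-fold and 3 at least 16-fold lower. The member in the middle of the order of ratios, picked as an example after the values were seen, shows the pattern. It had 262, 116 and 175 CPM in the 3 mock inputs and 121, 261 and 332 CPM in the PE inputs. Its IP values were 79.5, 75.5 and 81.1 CPM in mock cells and 61.2, 94.2 and 46 CPM after PE. The 3 mock precipitates lay close together and the inputs spread widely. The lowest input stood above the highest precipitate, as the choice of members required.

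Across all members, the median level per library was 142, 105 and 108 CPM in mock input and 99.8, 119 and 144 CPM in PE input. In the precipitates it was 50.2, 32.2 and 52.0 CPM under mock treatment and 33.1, 35.2 and 42.7 CPM under PE. The median over all 10491 tested genes stayed between 9.59 and 13.5 CPM in these libraries. The lowest precipitate medians came from IP mock replicate 2 and IP PE replicate 1, and the lowest input medians from input PE replicate 1 and input mock replicate 2. Of the 145 members, 88 had their lowest input value in input mock replicate 2 or input PE replicate 1, and 75 had their lowest IP value in IP mock replicate 2 or IP PE replicate 1.

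**Figure D1:**
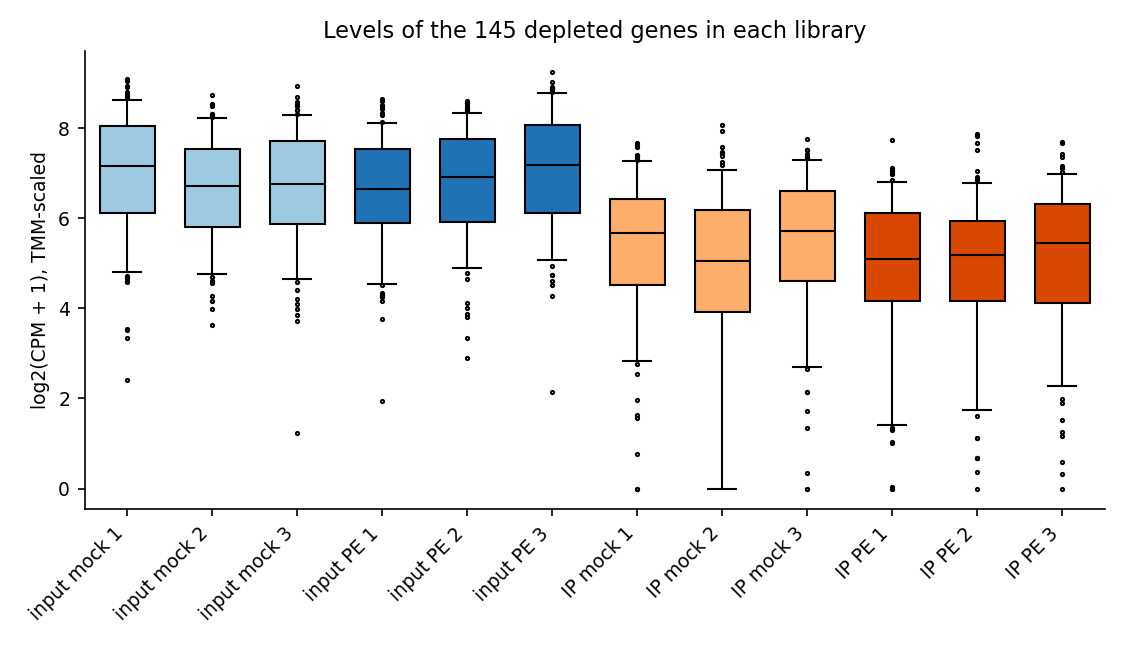
Levels of the 145 members in each library, as log2(CPM + 1) with TMM scaling; boxes show the quartiles and the median, whiskers the 5th and 95th percentiles, and dots the genes beyond. Median levels were 99.8 to 144 CPM in the 6 input libraries and 32.2 to 52.0 CPM in the 6 IP libraries.

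The gap between the groups was narrow for many members. The lowest input value was a median of 1.27 times the highest IP value, and 26 members had a ratio under 1.1, whereas 15 had a ratio of at least 2. At the fold limit, the 3 genes just outside were 1.97-fold, 1.98-fold and 1.99-fold lower and the 3 members just inside were 2.01-fold, 2.02-fold and 2.02-fold lower. A gene on either side thus differed little from its neighbour. In the same range of input levels, 41 further genes had no overlap but were under 2-fold lower, and 253 were at least 2-fold lower in their means but overlapped.

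The member with the highest input level had a mean near the upper limit of the range. It had 442, 361 and 269 CPM in mock input and 403, 373 and 457 CPM in PE input. Its precipitates had 195, 267 and 216 CPM in mock cells and 85.9, 204 and 122 CPM in PE cells. IP mock replicate 2, at 267 CPM, came within 2 CPM of the lowest input, so this gene met the rule by a very small margin.

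The largest ratio belonged to ENSRNOG00000056721, and 1 library dominated its input level. It had 10.6, 103 and 1.35 CPM in mock input (44, 452 and 1 counts) and 2.83, 9.16 and 3.40 CPM in PE input (14, 34 and 57 counts). In the precipitates it had 0 counts in 5 libraries and 4 counts, 0.498 CPM, in IP PE replicate 3. Input mock replicate 3 rested on 1 count, so its separation from the precipitates was at the limit of depth.

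ENSRNOG00000060430 had the second largest ratio and a more even input. It had 9.18, 23.5 and 16.1 CPM in mock input and 18.4, 15.1 and 40.1 CPM in PE input, from 12 to 672 counts per library. In mock cells all 3 precipitates had 0 counts, and the mean input was 16.3 CPM ± 7.18 (SD, n = 3). Taking 3 counts summed over the group as the most that 0 allows, which covers counting error only, the mock precipitates were at least 297-fold lower. This bound leans on IP mock replicate 2, the deepest of the 3, which had 0 counts for 6.96% of genes at 20 to 50 CPM. A bound without that library was not computed. After PE the precipitates had 0, 9 and 2 counts, or 0, 2.66 and 0.249 CPM. In total 10 members had 0 counts in at least 1 precipitate. All 10 had 0 counts in IP mock replicate 2, against 1 or 2 members in each of the other IP libraries.

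The scaling decides how these differences are read. Of the raw counts, the members together held 1.21%, 1.65% and 1.03% in mock input and 1.72%, 1.52% and 1.48% in PE input. They held 1.26%, 1.02% and 1.26% in mock IP and 1.04%, 1.02% and 1.23% in PE IP. By group the shares were 1.30% ± 0.317 (SD, n = 3) in mock input, 1.18% ± 0.137 (n = 3) in mock IP, 1.57% ± 0.126 (n = 3) in PE input and 1.1% ± 0.117 (n = 3) in PE IP. The input and IP ranges overlapped through the mock inputs. On library totals the median member was 0.37 lower on the log2 scale in IP, while the median of all tested genes was 1.29 higher. Without composition factors the median over all genes moved by 1.13 on the log2 scale. On that scale 122 of the 145 members still had a lower mean in IP, 24 were at least 2-fold lower and 5 had no overlap, and 4 genes in all met the membership rule. The members were depleted relative to most other genes, and much less so as shares of all reads.

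When the 10 most abundant genes were left out of the denominator, the members held 2.34% to 2.93% of the remaining input counts and 1.09% to 1.55% of the remaining IP counts. These ranges did not overlap. The members were chosen for no overlap on the TMM scale, so this is a description and supports nothing. The part that the 10 genes have in the TMM scaled differences was not tested.

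On the TMM scale, depletion was not limited to the most abundant transcripts, and its frequency rose with the input level (no overlap over 12 libraries and at least 2-fold lower, 2.43% of all tested genes). On library totals only 4 genes met the membership rule. From 20 to 50 CPM, 27 of 1831 genes (1.47%) were depleted, fewer than the 33 (1.80%) that were higher in every IP library by at least 2-fold. In each bin above, the depleted share was the larger. It was 3.50% of 858 genes from 50 to 100 CPM, 8.06% of 521 genes from 100 to 200 CPM and 16.5% of 278 genes from 200 to 400 CPM. Above this range it was 22.4% of 165 genes up to 1000 CPM and 39.7% of 131 genes beyond 1000 CPM. The median log2 ratio over all genes of a bin fell with the level too. From 20 to 400 CPM this median was 0.03, -0.07, -0.29 and -0.49 in rising order, and above that range -0.74 and -1.13. The part of this shift of whole bins in the depleted shares was not tested. In all, 145 of the 255 depleted genes lay in the moderate range, 89 above and 21 below.

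Genes higher in every IP library by at least 2-fold were distributed differently (1.47% of all tested genes). In the moderate range they numbered 48 of 3488 genes (1.38%, against 4.16% for the members). Of these, 33 lay between 20 and 50 CPM, 12 between 50 and 100 CPM, 1 between 100 and 200 CPM and 2 between 200 and 400 CPM. Of the 165 genes at 400 to 1000 CPM and the 131 above, 0 were higher. The input level enters both the bins and the ratio. Binned by the mean over all 12 libraries instead, depleted genes were 1.61%, 4.25%, 8.27% and 13.5% of the 4 moderate bins in rising order, and enriched genes 2.36%, 2.90%, 2.02% and 0.398%. Precision also rises with level, and its part in these shares was not tested.

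**Figure D2:**
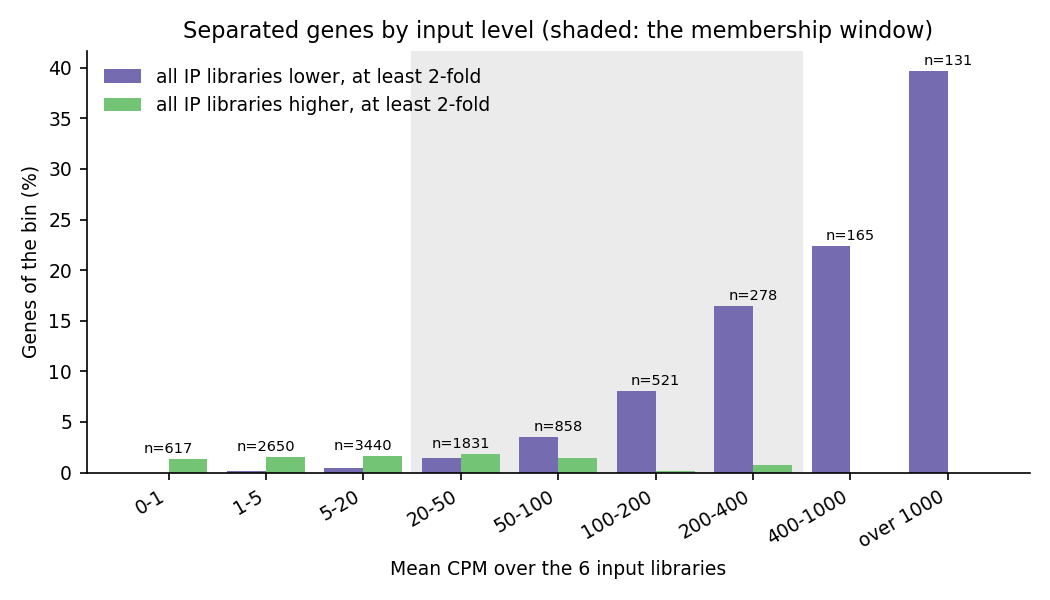
Share of tested genes (%) that were lower (purple) or higher (green) in all 6 IP than in all 6 input libraries by at least 2-fold, by mean input CPM, with the number of genes in each bin. Between 20 and 400 CPM the lower share climbed from 1.47% to 16.5%, while the higher share was 1.80% in the lowest of these bins and 0.719% in the highest.

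**Figure D3:**
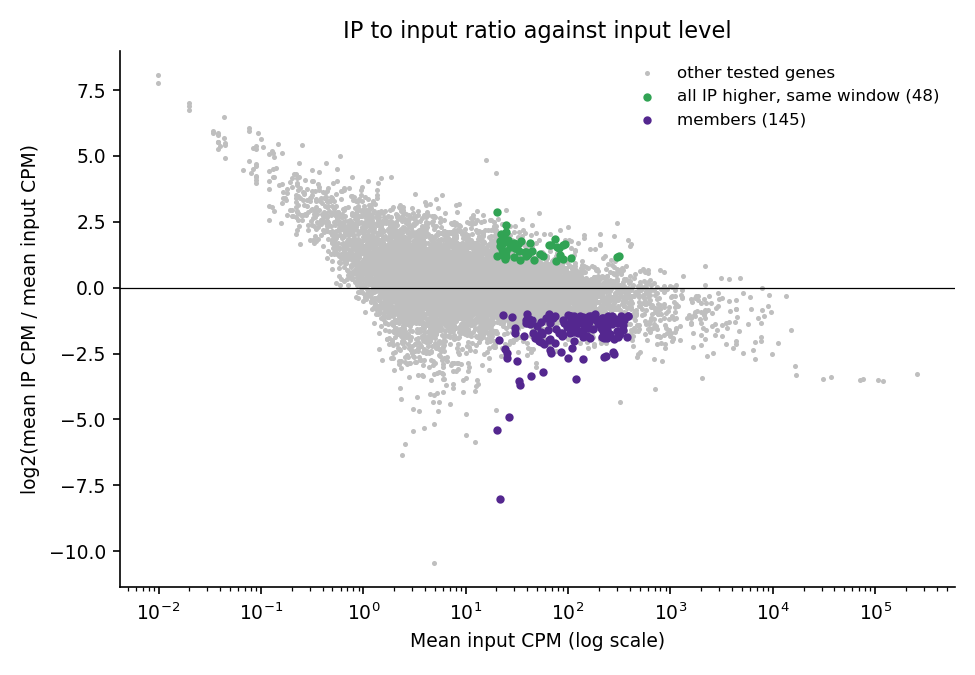
Log2 ratio of mean IP to mean input CPM (linear axis) against mean input CPM (log axis) for tested genes with a count in both, with the 145 members in purple and the 48 genes of the same range that were higher in all IP libraries in green. Members lay between -1.01 and -8.03, and the most extreme ratios sat at the low end of the range.

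Among the members themselves the fold varied more at low levels. The 27 members at 20 to 50 CPM had a median of 3.57-fold, from 2.02-fold to 262-fold, and 11 of them were at least 4-fold lower. The 30 members at 50 to 100 CPM had a median of 3.30-fold, with 10 at least 4-fold lower. In the 42 members at 100 to 200 CPM the median was 2.51-fold and in the 46 at 200 to 400 CPM 2.79-fold, with 4 at least 4-fold lower in each. The highest value in the top class was 6.15-fold. Across the 145 members the log2 ratio rose with the log2 input level, with Pearson's r at 0.40 and Spearman's rho at 0.26. Both measures share the same input values, and 8 of the 10 members with a precipitate at 0 counts lay in the lowest class.

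Members varied less between replicates than other genes of their range. The SD of log2(CPM + 1) over 3 libraries had a median of 0.39 in mock input and 0.38 in PE input for members, against 0.53 and 0.51 for the other 3343 genes. In the precipitates it was 0.46 in mock and 0.40 in PE for members, against 0.51 and 0.50. The rule selects for a small spread, because it asks for no overlap.

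The choice of members used both treatments, so the data of 1 treatment were also used to choose genes and the other treatment to measure them. No library is shared between mock and PE, and filter, scaling and rule were applied within each treatment. The labels do not say whether the cultures were separate. Between mock and PE inputs, deviations correlated at r of -0.261 to 0.323 across genes, highest for mock replicate 2 and PE replicate 1. Whatever sets all precipitates apart from all inputs would repeat too, and its part was not tested. In the 6 mock libraries 289 genes met the rule, of which 116 are members. In the 6 PE libraries 134 of these 289 (46.4%) again showed no overlap and at least 2-fold lower IP levels, against 10% of the 3671 genes at 20 to 400 CPM there and 6.96% of all 9329 tested. None was at least 2-fold higher without overlap. Their mean was lower in IP for 272 of 289 genes (94.1%), against 57% of genes in the range. The median log2 ratio in PE was -1.30, against -0.12 in the range. With mock replicate 2 and PE replicate 1 left out, 295 of 453 genes (65.1%) repeated the pattern, against 19.2% of the range. Leaving out input mock replicate 2 alone gave 28.7%, against 10% of the range. Leaving out input PE replicate 1 alone gave 69.9%, against 18% of the range, so the share rose for all genes of the range too.

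The reverse choice gave a similar picture with a lower share. In the 6 PE libraries 367 genes met the rule, 134 of them members. In the 6 mock libraries 127 of these 367 (34.6%) showed no overlap and at least 2-fold lower IP levels, against 8.72% of the 3316 genes in the range and 6.11% of all 8838 tested. None was at least 2-fold higher without overlap. The mean was lower in IP for 336 genes (91.6%), against 57.2% of the range, and the median log2 ratio was -0.89, against -0.12. With the same replicates left out, 309 of 672 genes (46%) repeated the pattern, against 14.6%. On library totals far fewer genes met the rule, namely 18 in mock and 38 in PE cells. Of these 9 of 18 (50%) and 9 of 38 (23.7%) repeated the pattern, against 1.28% and 0.705% of the range.

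**Figure D4:**
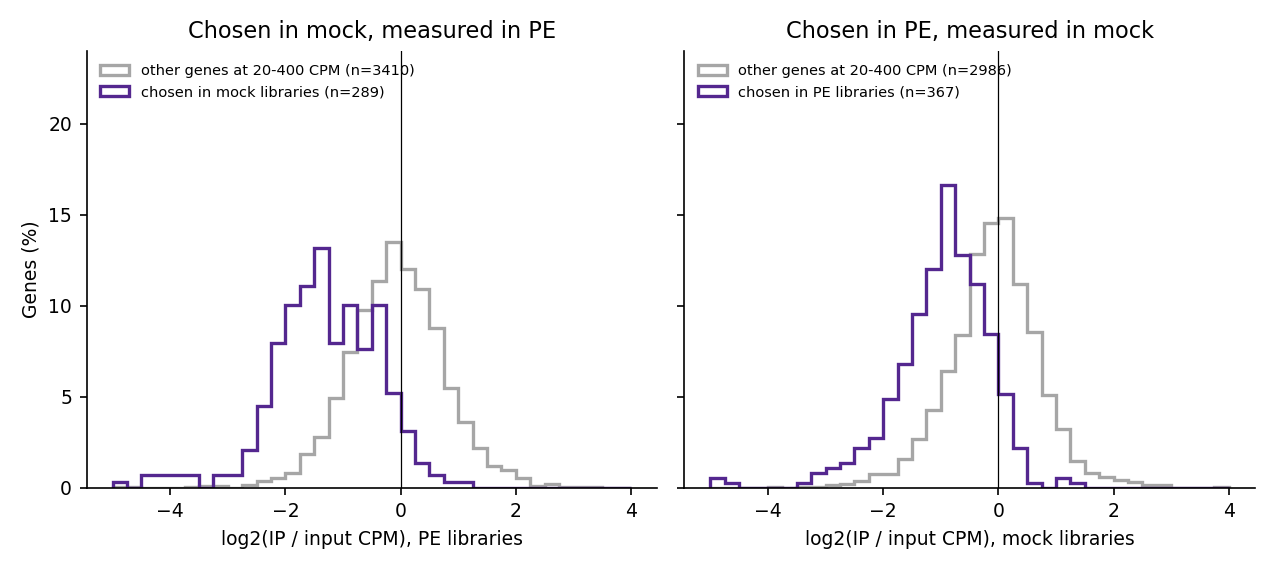
Distribution (% of genes) of the log2 ratio of mean IP to mean input CPM in the treatment that was not used for choosing, for the 289 genes chosen in mock libraries (left, measured in PE) and the 367 chosen in PE libraries (right, measured in mock), beside the other genes at 20 to 400 CPM; values beyond the axis are in the end bins. Chosen genes had medians of -1.30 and -0.89.

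The repeat was found at each input level. Among genes chosen in mock cells, 15 of 70 (21.4%) repeated the pattern in PE cells at 20 to 50 CPM, against 5.02% of the genes not chosen. At 50 to 100 CPM the share was 43.0% of 79 against 5.96%, at 100 to 200 CPM 56.5% of 62 against 12.5%, and at 200 to 400 CPM 78.0% of 50 against 16.7%. Among genes chosen in PE cells, the shares in mock cells were 26.5% of 98, 34.8% of 92, 40.5% of 84 and 55.4% of 56 in the same order. The genes not chosen gave 4.67%, 5.87%, 7.40% and 7.73%. Of the chosen genes, 28 and 37 lay outside 20 to 400 CPM in the other treatment and are not in these classes.

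Few of the single genes passed a test within 1 treatment. In the edgeR quasi-likelihood test on the 6 PE libraries alone, 22 of the 289 genes chosen in mock cells were lower at an adjusted p under 0.05 and 0 higher (lower: 0.825% of all genes tested). At an unadjusted p under 0.05, 161 were lower (7.06% of all genes) and 0 higher. On the 6 mock libraries alone, 0 of the 367 genes chosen in PE cells passed in either direction (lower: 0.0113% of all genes), with 141 lower (5.06% of all genes) and 0 higher at an unadjusted p under 0.05. Nothing in the labels says that replicates were separate cultures or animals, so these p-values measure only the spread between libraries, which may be technical.

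For the 145 members, the fit over all 12 libraries called 10 lower in mock cells and 58 in PE cells (edgeR, adjusted p under 0.05, lower: 0.581% and 1.65% of all genes). It called 0 higher in either (0.162% and 0.458% of all genes). The rule used these contrasts, so nothing is read from the counts. A replicate block within treatment, which pairs input and IP of the same number, gave 40 in mock cells, where it called 1.69% of all genes lower. With mock replicate 2 and PE replicate 1 left out the counts were 71 and 121, and the shares of all genes called lower rose as well, to 3.25% and 5.80%. Single libraries moved both counts. With 1 library left out, the share of all genes called lower ran from 0.0264% to 0.672% in mock and from 0.563% to 2.17% in PE cells. The mock count became 0, 6 and 1 when the inputs of mock replicates 1, 2 and 3 were left out in turn, and 1, 1 and 0 for the mock precipitates in the same order. It became 16, 3 and 5 for the PE inputs. The PE count became 27 and 8 when the inputs of PE replicates 2 and 3 were left out, and 18, 12 and 21 for the PE precipitates in order. It became 37 when the third mock input was left out and 94 when the second mock precipitate was.

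The depth of depletion can be set out by treatment as a description. By means, 118 were at least 2-fold lower in mock cells, 137 in PE cells and 110 in both. The median log2 ratio was -1.42 in mock and -1.66 in PE cells, and 105 of 145 members had a lower ratio after PE. Their ratios in both treatments had a Spearman rho of 0.49 over 145 genes and a Pearson r of 0.64 over the 143 with counts in both. The rule required lower IP values in both treatments, which limits the range of these ratios.

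No change of depletion with PE was detected for a single member. The test of the difference between the IP effects in PE and in mock cells called 0 members in either direction (edgeR quasi-likelihood, smallest adjusted p = 1.00, with 0% of all genes lower and 0% higher). At an unadjusted p under 0.05, 6 members were lower and 3 higher (1.17% and 1.41% of all genes). Among the 3 were ENSRNOG00000056721 and ENSRNOG00000060430. Both had 0 counts in every mock precipitate, so the size of their fitted change is not defined. The DESeq2 Wald test passed 0 members, and it called 0.0191% of all genes lower. The median difference was -0.30 on the log2 scale, against -0.06 for the other genes of the range. The difference was negative for 105 of 145 members (72.4%, against 53.8%). The 89 more abundant genes with the same separation and fold had a median of -0.37, with 74.2% negative. The median SE of a single member's difference was 0.58. The rule did not use this difference, but it asked for no overlap in both treatments. Genes depleted in only 1 treatment were thus left out beforehand, which limits the changes that members can show.

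No effect of PE on a single member was detected in total RNA, but the choice of members limits what this can show. The rule asked for all 6 input values to lie above every IP value. Genes whose input fell far or varied strongly with PE could therefore be excluded by the rule itself. Of the other genes of the range, 5.23% had an unadjusted p under 0.05 in input (edgeR, both directions together). Whether PE changes depleted genes in total RNA cannot be read from the members alone. In input, 0 members were called (edgeR, smallest adjusted p = 1.00, with higher 0.00953% and lower 0% of all genes). At an unadjusted p under 0.05, 0 members passed in either direction (higher 2.28% and lower 1.3% of all genes). The DESeq2 Wald test passed 0 members, and it called 0.00953% of all genes lower. The median log2 fold change was 0.08, against 0.04 for the other genes of the range, with 87 members positive and 58 negative. PE and mock inputs did not overlap for 3 members in the higher direction (5.67% of all genes) and 3 in the lower (4.18% of all genes). The median SE was 0.41 on the log2 scale.

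In the precipitates most members had a negative fold change with PE, and no single member was called. The edgeR test called 0 members (smallest adjusted p = 0.329, with higher 0.00953% and lower 0% of all genes). The DESeq2 Wald test passed 1 as lower, and it called 0.124% of all genes lower. The median log2 fold change was -0.23, against -0.03 for the other genes of the range, and 101 of 145 members were negative (69.7%, against 51.8%). With the 2 members that had no count in mock precipitates set at their bound, the median was also -0.23. At an unadjusted p under 0.05, 12 members were lower (2.60% of all genes) and 2 higher (2.94% of all genes). One of the higher was ENSRNOG00000060430, which had 0 counts in every mock precipitate. Of the other 3343 genes of the range, 165 were lower and 121 higher. Both directions together made 9.66% of members and 8.56% of those genes. Without overlap between treatments, 20 members were lower after PE (6.29% of all genes) and 2 higher (8.61% of all genes). Of the other 3343 genes of the range, 347 were lower and 255 higher without overlap. Among the 89 more abundant depleted genes, 29 were lower without overlap and the median was -0.35. The median was -0.11 on library totals, with 88 members negative. It was -0.37 without IP mock replicate 2, which stood apart, and -0.34 with mock replicate 2 and PE replicate 1 left out, with 117 and 110 members negative. In these 3 settings 0 members were called, with 0%, 0% and 0.177% of all genes called lower.

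The member with the smallest p in that comparison was the 1 that DESeq2 passed. It had 68.9, 73.7 and 52.7 CPM in mock precipitates and 20, 21.6 and 27.0 CPM after PE, with no overlap. Its input was 156, 115 and 126 CPM in mock cells and 115, 86.5 and 99.6 CPM after PE, and here too PE lay below mock, though input mock replicate 2 and input PE replicate 1 differed by less than 1 CPM. The log2 fold change of PE against mock was -1.51 in the precipitates (SE 0.34, edgeR adjusted p = 0.329, DESeq2 adjusted p = 0.00948) and -0.40 in input (SE 0.33, edgeR adjusted p = 1.00). The change of its IP effect was -1.11 (SE 0.47, edgeR adjusted p = 1.00). Over the alternatives the adjusted p in the precipitates ran from 0.00948 to 1.00.

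The member with the next smallest p showed the same order in the precipitates. Its mock precipitates had 33.6, 17.4 and 27.2 CPM and its PE precipitates 5.83, 6.79 and 12.2 CPM. Mock inputs had 107, 63.5 and 48.4 CPM and PE inputs 50.1, 76.5 and 102 CPM. Precipitates of the treatments did not overlap, while the inputs covered the same range. The log2 fold change in the precipitates was -1.65 (SE 0.48, edgeR adjusted p = 0.669), with adjusted p from 0.0936 to 1.00 over the alternatives.

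**Figure D5:**
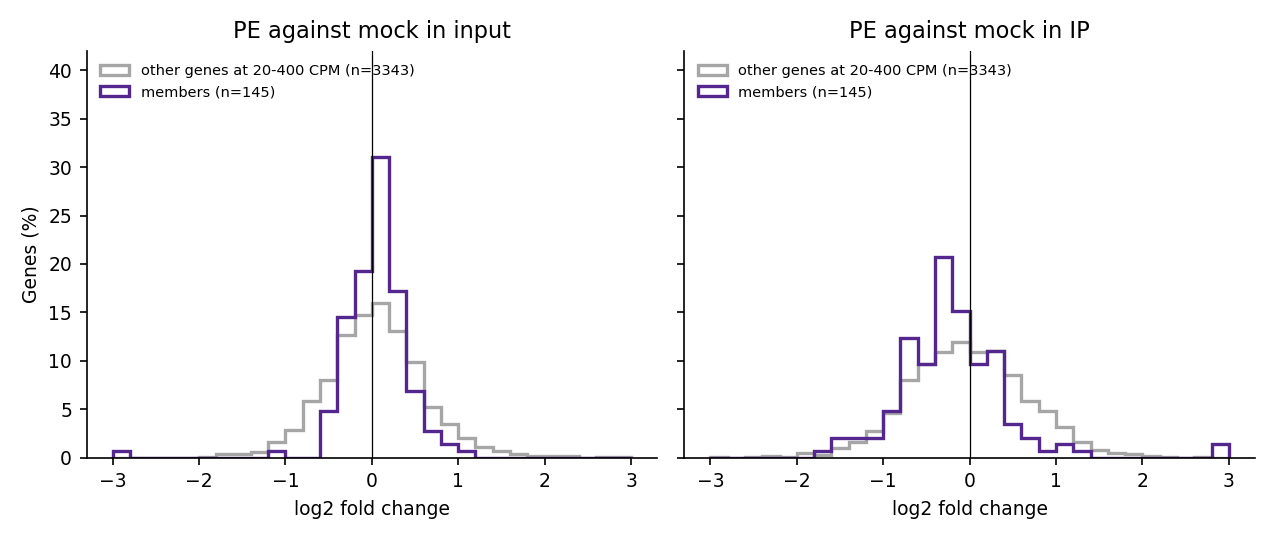
Distribution (% of genes) of the edgeR log2 fold change of PE against mock in input (left) and in IP (right) for the 145 members (purple) and the other 3343 genes at 20 to 400 CPM (grey); values beyond 3 in size are in the end bins. Members had medians of 0.08 in input and -0.23 in IP.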

How the data were processed

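The authors deposited raw counts per gene for 12 libraries. Per the submitters' processing notes, the tools were STAR 2.7, cutadapt 2.5, DESeq2 and featureCounts 1.6.4, with the genome Rnor_6.0, and no options are stated in the sources used. Per the labels' protocols, a 3′ end kit with 15 cycles took 200 ng RNA per library. The table held 32883 genes; 15786 had a count and 10491 passed filterByExpr by the 4 groups, with at least 99.6% of each library's counts. Library totals ran from 1423334 to 30216559 counts.

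CPM used TMM factors. Tests used edgeR 4.0.16 (R 4.3.3, robust quasi-likelihood F-test, 4 group means, all 12 libraries) with Benjamini-Hochberg adjustment over all genes, checked on simulated counts; DESeq2 1.42.0 was an alternative. SE is the log2 fold change divided by the square root of F. Members and lists were chosen with earlier results of these data known. The rule for named members took the lowest ratios, the highest input levels, the smallest p for PE and the genes beside the fold limit. Without symbols it allowed 2 identifiers, so other members are described without one. Same-numbered input and IP libraries deviated together in mock cells (r of 0.121 to 0.257 across genes), in PE cells less so (0.0236 to 0.232).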

Additional observations from a re-analysis of the deposited data

How the results depend on the processing

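Settings for the repeat across treatments were added after the data had been seen; all others were planned with earlier results known, and the cause of each move was not tested unless stated. The rule gave 145 genes; library totals gave 4, the 4-fold limit 29, mock libraries alone 289, PE libraries alone 367, and leaving out mock replicate 2 and PE replicate 1, 4 libraries in all, gave 378 (128 of the 145 kept). Leaving out each library gave 140 to 219, the highest without input PE replicate 1. With DESeq2 size factors 162 genes met the rule, 144 of them members.

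Members called for IP against input numbered 10 in mock and 58 in PE cells. DESeq2 size factors gave 20 in mock, library totals 2 and 1, and no filter 42 in mock. The DESeq2 Wald test gave 71 and 116, the 6 libraries of a comparison 0 and 19, and leaving out the 4 libraries 71 and 121. The share of all genes called lower moved too, from 0.581% in mock and 1.65% in PE cells. It was 0.839% in mock with DESeq2 size factors, 0.0953% and 0.229% on library totals, and 1.21% in mock without the filter. With the DESeq2 Wald test it was 2.39% and 3.82%, on the 6 libraries 0.0113% and 0.825%, and without the 4 libraries 3.25% and 5.80%. Single libraries left out gave 0 to 16 and 8 to 94 members, with 0.0264% to 0.672% and 0.563% to 2.17% of all genes called lower. A replicate block gave 40 in mock cells and 81 in PE cells (1.69% and 2.79% of all genes called lower). It gave 0 called members for PE against mock in input, in IP and for the change of the IP effect. Whether the numbers pair input and IP is not settled. In mock and in PE cells alike, 2 of 3 inputs correlated best with the IP of their own number. Pairs of unlike number reached r of 0.143 in mock and 0.220 in PE cells, which lay within the range of same-numbered pairs. PE against mock gave 0 members in input under every setting run. In IP it gave 1 with the DESeq2 Wald test, which called 0.124% of all genes lower, against 0 otherwise. The change of the IP effect gave 0 throughout.

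The share of genes chosen in mock that repeated in PE was 46.4%, 65.1% without the 4 libraries and 28.7% to 69.9% with single libraries left out. In the reverse direction it was 34.6%, 23.7% on library totals, 46% without the 4 libraries and 26.5% to 47.1% with single libraries left out. Without the 10 most abundant genes in the denominator the members held 2.62% of input and 1.32% of IP counts, by construction above 1.44% and 1.14%; single libraries left out gave 1.38% to 1.52% and 1.11% to 1.16%. For the second member described under PE, the input log2 fold change of 0.05 ran from -0.21 to 0.44 with single libraries left out; it was -0.04, -0.16 and -0.21 without input mock replicates 2 and 3 and input PE replicate 3.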
